A study of Mus musculus with 62 samples.

Results

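The glycolysis and gluconeogenesis genes were a set of 37 genes among the 21938 protein-coding genes of the GENCODE M21 annotation of the mm10 mouse genome. They were chosen by their step in the pathway, with no measured value in the rule, and each was followed through the CUT&Tag sites that lay in its gene body or within 5 kb of either end. The set held 2 glucose transporters, 3 hexokinases, 7 enzymes of upper glycolysis, 4 enzymes that set the level of fructose-2,6-bisphosphate, 9 enzymes of lower glycolysis, 5 genes of lactate handling and 7 genes of gluconeogenesis. Across 14 comparisons these genes held 1799 listed sites. Aldoa is annotated under 2 gene IDs, which were counted as 1 gene, and the windows of Ldha and Ldhc and of Fbp1 and Fbp2 run into each other, so a site in the shared stretch was counted once in a total and for each of its genes where genes are described.

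Glycolysis splits glucose into pyruvate in the cytosol, with hexokinase, phosphofructokinase and pyruvate kinase as its controlled steps, and lactate dehydrogenase returns the pyruvate to lactate when it is not burnt in mitochondria. Gluconeogenesis runs the same chain backwards and needs its own enzymes, pyruvate carboxylase, phosphoenolpyruvate carboxykinase, fructose bisphosphatase and glucose-6-phosphatase, to pass the irreversible steps. Quiescent haematopoietic stem cells are known to lean on glycolysis, and many of these enzymes come as pairs or trios of tissue forms.

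The series profiled chromatin by CUT&Tag, in which an antibody tethers a transposase that cuts the DNA around its target, in haematopoietic stem and progenitor cells (HSPCs; bone marrow cells enriched on magnetic beads for c-Kit after lineage-positive cells were removed) of mice without the histone chaperone Daxx. Daxx deposits the histone variant H3.3, and the targets were H3.3 itself, the myeloid transcription factor Pu.1 (gene Spi1), H3K27ac of active promoters and enhancers, and the repressive marks H3K9me3 and H3K27me3. WT mice were Daxx +/+ Cre +/-, Daxx-KO mice were Daxx F/F Cre +/- and the double knockouts (DKO) were floxed at both genes (Daxx F/F and Pu.1 F/F) with Cre +/-. All 3 groups thus carried the Mx1Cre transgene, which is driven by an interferon-responsive promoter and acts in blood and other tissues. All 3 received pI:pC, the interferon inducer that switches it on, by the paper usually at an age of 5 to 11 weeks. The strain label was C57BL/6, with mice of both sexes used in the study, and HSPCs were taken at 3, 8 or 24 weeks after the injections (w.p.i.) from different mice at each time.

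At 3 w.p.i. there were 2 Daxx-KO and 2 WT libraries each for H3.3, Pu.1, H3K27ac and H3K9me3. At 8 w.p.i. there were 3 libraries per genotype, compared in 3 pairs for H3K9me3 and, for H3K27me3, as DKO with WT and DKO with Daxx-KO; comparisons of 1 mark share libraries with each other. At 24 w.p.i. each of the 5 targets had 2 Daxx-KO libraries and 2 of WT. Of 62 libraries, 54 entered these 14 comparisons, and 8 DKO libraries at 24 w.p.i. belonged to none of them. Mean depth, in reads per window, was 1.21 to 33.78 in the 3 w.p.i. libraries, 0.2 to 3.29 in those of 8 w.p.i. and 3.97 to 10.3 in those of 24 w.p.i. WT replicate 2 of H3.3 and of Pu.1 at 3 w.p.i. was shallow, at 3.06 and 2.75 reads per window against 22.88 and 33.78 in WT replicate 1. As a check of the labels, an H3K27ac site over exons 2 to 7 of Daxx, the stretch that Cre removes, held 113 and 93.7 normalized counts with Daxx deleted and 858 and 368 in WT at 24 w.p.i., and 24.2 and 13.6 against 65.6 and 105 at 3 w.p.i. The cell type could not be checked from markers, since a site is listed only for a difference between genotypes.

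The files list only the sites at which the authors' own test between groups passed, with a normalized count per library. A site was called gained where every library of the first group lay above every library of the second, lost where every one lay below, and overlapping otherwise; the log2 ratio is that of the group means with 1 count added to each, and a gain or loss is called largest by that ratio among member sites with a mean of at least 20 in the higher group (10 where no site reached 20). No test was run on single sites, since an exact two-sided permutation test cannot go below 0.33 with 2 against 2 libraries or 0.10 with 3 against 3, and every listed site was already chosen for its difference. The members were therefore read against all listed sites, and the intervals given for shares are Wilson 95% intervals, which cover counting error alone; sites of 1 gene are not replicates of each other. In a bulk sample, fewer cells of a type and less signal per cell cannot be told apart.

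At 3 w.p.i. the members were mostly on the gained side for H3.3 and Pu.1 and on the lost side for H3K27ac. For H3.3, 157 of 208 member sites were gained (75.5%, interval 69.2 to 80.8), against 58.7% of all listed sites and 62.1% of those in gene windows, and 47 were lost, where 39.7% of all sites were lost. For Pu.1, 142 of 191 were gained (74.3%, 67.7 to 80.0) and 46 lost, against 55.3% gained and 42.8% lost over all sites. In gene windows 58.6% of Pu.1 sites were gained. Whether these shares depend on the shallow WT replicate 2 was not tested, since a site gained with all libraries stays gained when 1 is left out. The H3.3 and Pu.1 libraries came from the same mice as far as the labels number them (WT replicate 1 has no number), and of 85 pairs of overlapping H3.3 and Pu.1 sites at the members 66 ran the same way (77.6%), close to the 78.8% of all such pairs. For H3K27ac, 127 of 190 member sites were lost (66.8%, 59.9 to 73.1) and 59 gained, against 58.2% lost and 39.4% gained over all sites. In gene windows 61.6% of H3K27ac sites were lost, a share inside that interval. The lost sites were weak. Away from gene starts, 121 lost sites had a median of 17.4 normalized counts in the higher group, against 33.8 for 56 gained sites. Among member sites with a mean of at least 20 the gained share was higher, as given under the processing. The share over all sites at that limit was not computed. Fbp1 and Fbp2 held 13 gained sites among their 14. Leaving this pair out, a choice made after the values were seen, raised the H3K27ac losses by construction, to 126 of 176 sites (71.6%). H3K9me3 was sparse: 10 sites at 5 members, 9 gained and 1 lost, where 78.5% of all sites were gained and 21.1% lost.

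At 8 w.p.i. the H3K9me3 libraries gave few sites at the members. Daxx-KO against WT listed 5 sites at 3 members, Hk1, Fbp1 and Fbp2, of which 4 were gained and none lost, against 56.8% gained and 32.3% lost over all sites. DKO against WT listed 2 sites, 1 gained and 1 overlapping (48.0% gained and 17.7% lost over all sites), and DKO against Daxx-KO listed 4, with 1 gained and 3 lost (45.5% gained and 24.3% lost over all sites). H3K27me3 was better covered, with 13 members listed in each comparison. DKO against WT had 28 gained, 7 lost and 11 overlapping member sites, where 48.0% of all sites were gained and 41.6% lost. DKO against Daxx-KO had 25 gained, 9 lost and 8 overlapping, where 55.9% of all sites were gained and 28.5% lost.

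At 24 w.p.i. H3.3 and Pu.1 were near the balance of all sites, while H3K27ac and H3K9me3 leaned further to gains. H3.3 had 119 gained and 98 lost of 220 member sites (51.3% and 47.0% over all sites), and Pu.1 had 117 gained and 131 lost of 258 (46.9% and 51.3% over all sites). H3K27ac had 188 gained and 160 lost of 365 (51.5% gained, interval 46.4 to 56.6), against 41.3% gained and 56.0% lost over all sites and 40.6% gained in gene windows. H3K9me3 had 59 gained and 28 lost of 87 (67.8% gained, 57.4 to 76.7), against 46.9% gained and 50.3% lost over all sites and 54.9% gained in gene windows. H3K27me3 had 58 gained and 108 lost of 171 (63.2% lost, 55.7 to 70.0), against 40.8% gained and 56.8% lost over all sites, a share inside that interval. A single member, Pcx, held 36 of those 58 gains. Without it, a removal chosen after the data were seen, 106 of 132 member sites were lost (80.3%).

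**Figure D1:**
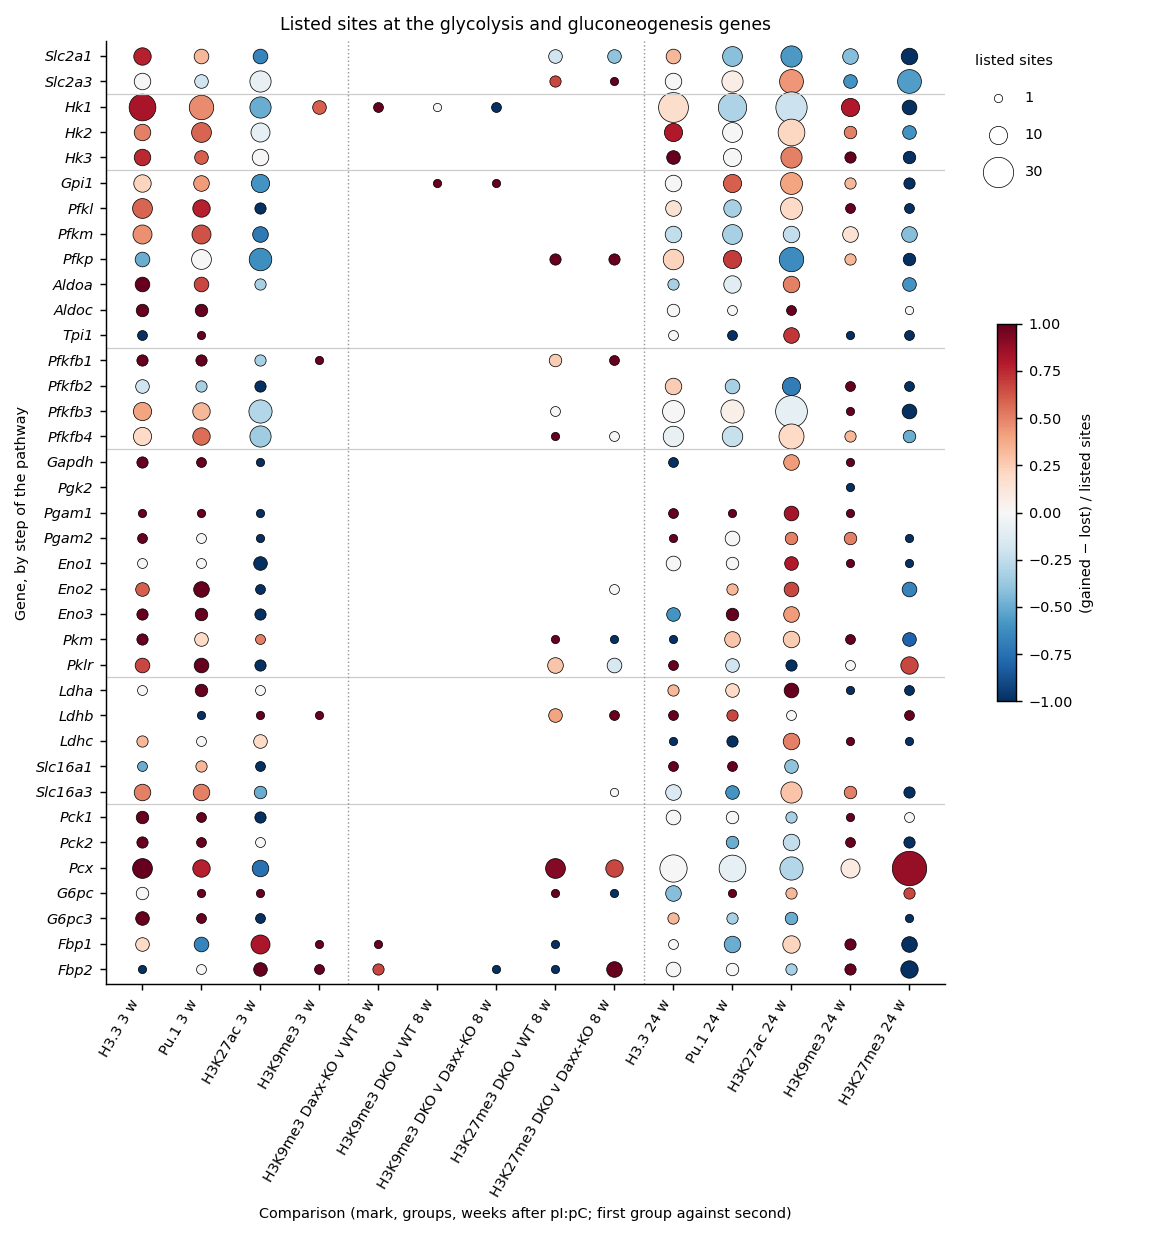
Balance of gained and lost sites at each of the 37 members (rows, by pathway step) in the 14 comparisons (columns); the area of a circle grows with the number of listed sites and its colour gives gained minus lost sites as a share of them, red for gained and blue for lost. At 3 w.p.i. the H3.3 and Pu.1 columns are mostly on the gained side and the H3K27ac column on the lost side, with the larger red circles at Fbp1 and Fbp2; at 24 w.p.i. the H3K27me3 column is on the lost side at most members, with Pcx, at 36 gained and 2 lost, as the large red circle.

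Listed H3K27ac sites at markers of other cell types were summed in the same libraries. Each of these sites was listed for a difference between genotypes, so that some difference in the sums was given in advance. Of 10 neutrophil markers, 8 had listed sites at 3 w.p.i. (all but S100a8 and S100a9) and their sites summed to 2598 and 2609 normalized counts in Daxx-KO against 1230 and 1209 in WT. At 24 w.p.i. all 10 were listed and the sums were 50063 and 51728 against 25235 and 27909. The 5 erythroid markers went the other way, with sums of 209 and 221 against 597 and 737 at 3 w.p.i. and of 1846 and 1455 against 2796 and 2847 at 24 w.p.i. The 4 T cell markers summed to 87.2 and 56.9 against 370 and 289 at 3 w.p.i. The stem and progenitor sums and the B cell sums, given under the other observations, were also higher in Daxx-KO at both times. Among all listed H3K27ac sites with a mean of at least 500 in the higher group, 94.2% were gained and 5.00% lost at 3 w.p.i. At 24 w.p.i. 77.4% of such sites were gained and 19.1% lost. The part of these markers in the results for the members was not tested.

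Gene starts, taken as the stretch within 1 kb of the annotated start, were listed most often for H3K27ac at 24 w.p.i., when 30 of the 36 members on the measured chromosomes had a listed H3K27ac site at the start, and of 43 such sites 28 were gained, 14 lost and 1 overlapping (65.1% gained, interval 50.2 to 77.6); over all protein-coding genes 54.0% of start sites were gained, a share inside that interval. The gained start sites were the strong ones, with a median of 907 normalized counts in the higher group against 103 for the lost ones. Among sites of any place with a mean of at least 500 in the higher group, 52 of 61 at the members were gained (85.2%), and 77.4% of all such sites were. The starts with gains alone belonged to 16 members: Slc2a1, Hk3, Gpi1, Pfkl, Aldoc, Tpi1, Pfkfb3, Gapdh, Pgam1, Eno1, Eno2, Pkm, Ldha, Slc16a3, Fbp1 and Fbp2. Those with losses alone belonged to 7: Eno3, G6pc, G6pc3, Pfkp, Pck1, Pklr and Ldhb.

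**Figure D2:**
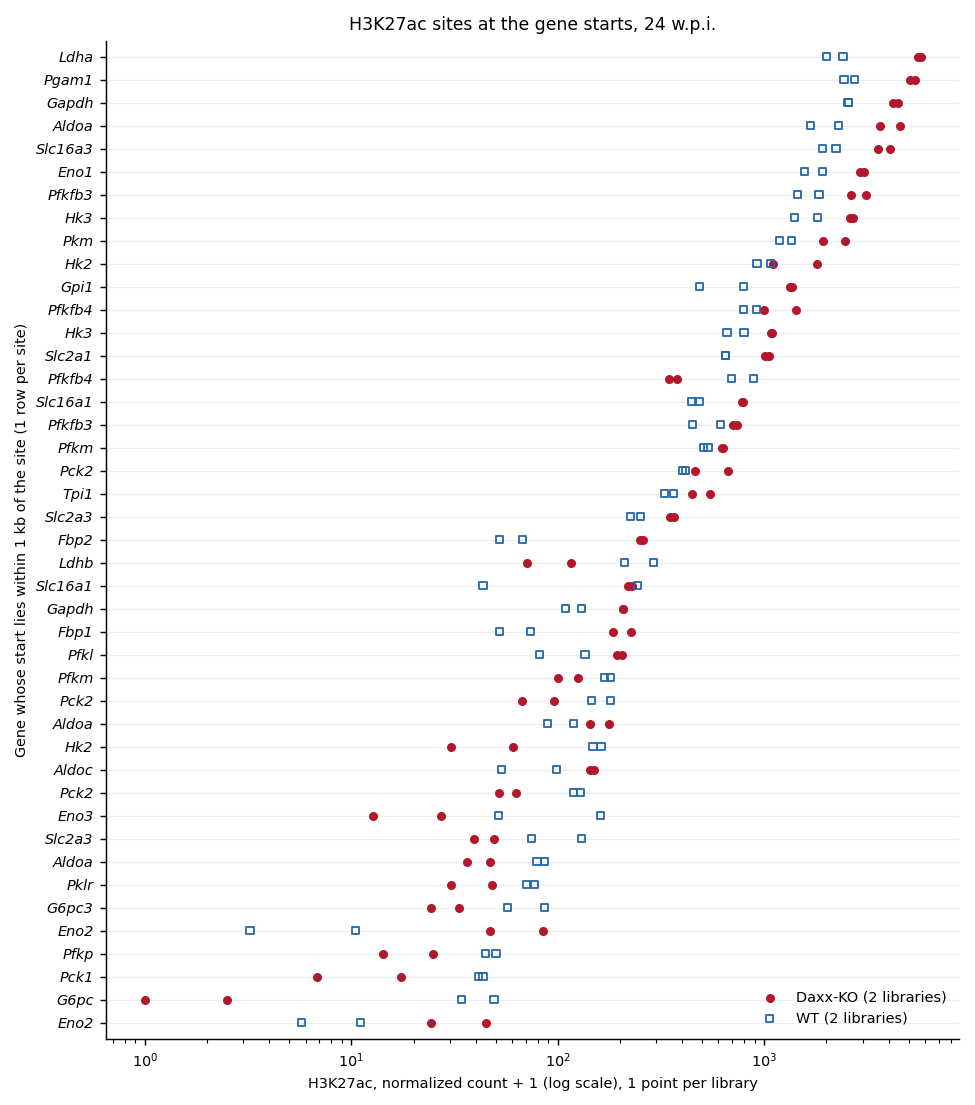
H3K27ac at gene starts of the members at 24 w.p.i., in normalized counts plus 1 on a log scale, with 1 row per site, filled circles for the 2 Daxx-KO libraries and open squares for the 2 WT libraries. The Daxx-KO libraries lie above WT at the strong starts of Ldha, Pgam1, Gapdh, Aldoa and Slc16a3 and below WT at weak starts such as G6pc, Pck1 and Eno3.

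At 3 w.p.i. the starts looked different. Only 9 members had a listed H3K27ac start site, gained at Hk3, Fbp1 and Slc2a3 and lost at Slc16a3, Pck2, Pklr, Eno1, Gpi1 and Pfkfb1, where 20.9% of start sites of all genes were gained. H3.3 start sites were gained at 15 of 20 (77.8% of all start sites) and Pu.1 start sites at 14 of 18 (79.2% of all). By 24 w.p.i. 22 of 32 Pu.1 start sites were lost, against 56.2% of all, and 17 of 24 H3K27me3 start sites were lost, against 65.7% of all. The 4 gained H3K27me3 start sites were at Slc2a3, which had 2, Pklr and Ldhb.

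Glucose enters through the transporters encoded by Slc2a1 (GLUT1, the widespread form) and Slc2a3 (GLUT3, a form of higher affinity). At the start of Slc2a1, H3K27ac at 24 w.p.i. was 1054 and 1006 in Daxx-KO against 646 and 649 in WT, and H3K27me3 was 177 and 202 against 304 and 396. The genotypes did not overlap in either mark, with H3K27ac higher and H3K27me3 lower in Daxx-KO. Away from the start Slc2a1 lost H3K27ac, with 3 sites gained and 11 lost in all, where 56.0% of all listed sites were lost at 24 w.p.i. Pu.1 just upstream of the start was 4.77 and 8.36 against 56.1 and 114, far lower in Daxx-KO. Slc2a3 had the opposite pattern in H3K27me3 at its start, where a site held 905 and 470.1 in Daxx-KO against 366 and 427 in WT. Of its 18 sites for that mark 14 were lost, where 56.8% of all sites were lost. Pu.1 upstream of Slc2a3 was 1.58 and 5.67 against 46.5 and 51.1 at 3 w.p.i. and 47.7 and 88.8 against 5.76 and 2.11 at 24 w.p.i. That stretch was thus lost early and gained late, and the largest Pu.1 loss of the set at 24 w.p.i. also lay in Slc2a3, 12.9 kb into the gene, where both Daxx-KO libraries were at 0 and WT at 72.0 and 126. In DKO against WT at 8 w.p.i. 4 H3K27me3 sites around Slc2a1 overlapped, with DKO replicate 1 the highest library at each. At the site 3.8 kb into the gene the DKO libraries held 228, 6.99 and 1.09 and the WT libraries 35.0, 35.3 and 11.2.

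Hexokinase traps glucose in the cell as glucose-6-phosphate; Hk1 is the widespread form, Hk2 the insulin-responsive one and Hk3 a form of myeloid cells. Hk1 (chr10:62268855-62379908, minus strand) held the most H3.3 and Pu.1 sites of any member at both times. H3.3 had 21 gained and 2 lost sites at 3 w.p.i. and 17 gained and 12 lost at 24 w.p.i., and Pu.1 went from 14 gained and 5 lost to 9 gained and 17 lost. Over all H3.3 sites 58.7% were gained at 3 w.p.i. and 51.3% at 24 w.p.i. For Pu.1 the shares gained were 55.3% and 46.9%. H3K27ac at Hk1 had 3 gained and 10 lost of 14 sites at 3 w.p.i. and 10 gained and 17 lost of 32 at 24 w.p.i., where 58.2% and 56.0% of all sites were lost. The largest H3.3 gain of the set at 3 w.p.i. lay 12.5 kb into Hk1, with 73.4 and 32.4 in Daxx-KO and 0 in both WT libraries. Pu.1 at 24 w.p.i. had a similar site near the 3' end, with 99.5 and 33.4 against 0 and 0.

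The same stretch of the first part of Hk1 gained H3K9me3 at each time in Daxx-KO. About 15.6 kb from the start the Daxx-KO libraries held 46.5 and 56.7 against 12.2 and 19.7 in WT at 3 w.p.i. At 8 w.p.i. they held 19.9, 29.4 and 18.7 against 6.32, 1.69 and 9.99, and at 24 w.p.i. 136 and 107 against 49.7 and 12.2. In none of these did the genotypes overlap. Nearer the start, a 3 w.p.i. site (chr10:62371201-62372600) held 40.7 and 73.3 against 20.1 and 18.6. It overlapped an 8 w.p.i. site (chr10:62372351-62373400), with 16.3, 17.5 and 32.1 against 0, 0 and 7.49. It also overlapped a 24 w.p.i. site (chr10:62370901-62371500), with 28.1 and 55.2 against 12.4 and 14.1. The 8 and 24 w.p.i. sites did not overlap each other, so no base there was listed at all 3 times. In DKO, the sites 12.7 and 6.9 kb into the gene were below Daxx-KO at 8 w.p.i. The first held 8.14, 13.1 and 8.02 against 33.8, 32.4 and 20.8. The second held 0 in all 3 DKO libraries against 8.44, 7.99 and 7.69. DKO replicates 1 and 2 were shallow, at 0.69 and 0.20 reads per window against 3.29 in replicate 3, so that a 0 in them says little. DKO against WT had 1 listed site in Hk1, which overlapped because DKO replicate 2, the shallowest of those libraries, held 89.8 where the others held 4.31 and 3.07. At 24 w.p.i. Hk1 had 9 gained H3K9me3 sites and 1 lost, where 46.9% of all sites were gained. The mm10 sequence of the middle of the stretch listed at all 3 times is printed to show what the mark lies on; it is intronic (chr10:62364326-62364625, plus strand) and 80.3% of it is marked as repeat in the RefSeq genome file.
Hk1 intron: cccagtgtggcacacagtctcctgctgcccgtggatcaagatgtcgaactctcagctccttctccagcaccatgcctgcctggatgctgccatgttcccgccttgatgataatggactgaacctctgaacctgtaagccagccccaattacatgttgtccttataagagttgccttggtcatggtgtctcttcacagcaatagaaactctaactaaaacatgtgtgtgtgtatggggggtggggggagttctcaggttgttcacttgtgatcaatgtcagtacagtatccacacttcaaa

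Hk2 and Hk3 gained H3K27ac at their starts at 24 w.p.i. For Hk3 the start held 2679.5 and 2588 in Daxx-KO against 1396 and 1813 in WT, and it was already higher at 3 w.p.i., with 154 and 144 against 80.6 and 56.3. Hk3 H3K27ac at 24 w.p.i. came to 10 gained and 3 lost sites, where 41.3% of all sites were gained. The largest Pu.1 gain of the set at that time, 2.2 kb upstream of Hk3, went from 0 in both WT libraries to 104 and 41.8. Hk2 held 1801 and 1107 against 1070.1 and 921 at the start while the flank 1 kb upstream was lost, at 59.9 and 29.3 against 161 and 147. H3K27me3 at the Hk2 start was also lost, 115 and 112 against 246 and 267. None of the hexokinases had a listed H3K27me3 site at 8 w.p.i.

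Upper glycolysis turns glucose-6-phosphate into the triose phosphates through phosphoglucose isomerase (Gpi1), phosphofructokinase (Pfkl, Pfkm, Pfkp), aldolase (Aldoa, Aldoc) and triose phosphate isomerase (Tpi1). At 3 w.p.i. these 7 members had 33 gained and 14 lost of 50 H3.3 sites, where 62.1% of sites in gene windows were gained, and 7 gained and 32 lost H3K27ac sites, where 61.6% of those in gene windows were lost. Gpi1 is an example of opposite directions near the start. The 3 w.p.i. H3K27ac site (chr7:34228901-34229500) lay inside the gene, short of the start, and the 24 w.p.i. site (chr7:34228851-34231100) covered the start. They held 10.7 and 6.80 in Daxx-KO against 37.6 and 28.7 in WT at 3 w.p.i. and 1359 and 1335 against 794 and 485 at 24 w.p.i. Daxx-KO lay wholly below WT at the first time and wholly above at the second. Gpi1 was also the member with the DKO gain of H3K9me3 at 8 w.p.i., beyond its 3' end, with 21.6, 13.8 and 11.5 in DKO against 7.19, 2.96 and 4.30 in WT and a site over the same stretch at 20.4, 13.1 and 11.7 against 1.99, 6.99 and 5.38 in Daxx-KO.

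Aldoa, the main aldolase of most cells, held 4537 and 3634 of H3K27ac at its start in Daxx-KO against 2278 and 1678 in WT at 24 w.p.i., a log2 ratio of 1.05. All 6 of its H3.3 sites were gained at 3 w.p.i., where 58.7% of all sites were. The largest relative to WT lay 2.1 kb from the nearer of its 2 starts, with 77.4 and 36.1 against 11.9 and 0. Pfkl and Tpi1 also gained at the start, with 193 and 203 against 80.4 and 134 and 546 and 444 against 328 and 362, and so did Aldoc, with 142 and 149 against 97.2 and 52.2. The Pfkm start was 629 and 625 against 508 and 533, a log2 ratio of 0.27, while a weaker site just upstream was lost at 98.9 and 124 against 179 and 167.

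Pfkp, the platelet form of phosphofructokinase, lost most of its H3K27ac sites. It had 3 gained and 15 lost H3K27ac sites at 24 w.p.i. and 3 gained and 13 lost at 3 w.p.i., where 56.0% and 58.2% of all sites were lost. Its largest H3.3 loss at 3 w.p.i., 45.3 kb into the gene, held 0 and 5.90 against 47.0 and 107. Around its start H3.3 and Pu.1 were gained at 24 w.p.i., H3.3 with 64.0 and 82.6 against 0 in both WT libraries and Pu.1 with 113 and 134 against 11.5 and 2.11. H3K27me3 at the same start was lost, 94.9 and 67.2 against 135 and 268. At 8 w.p.i. DKO gained H3K27me3 at 3 Pfkp sites against both WT and Daxx-KO. At the site 5.0 kb upstream DKO held 10.0, 41.2 and 9.93 and Daxx-KO 2.47, 1.09 and 1.97, with the WT libraries at 2.62, 7.25 and 2.24.

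Fructose-2,6-bisphosphate, the strongest activator of phosphofructokinase and an inhibitor of fructose bisphosphatase, is made and broken down by the enzymes of Pfkfb1 to Pfkfb4. Pfkfb3, whose product mostly makes it, held the most H3K27ac sites of the set at both times. At 3 w.p.i. it had 6 gained and 11 lost sites, and at 24 w.p.i. 14 gained, 17 lost and 2 overlapping. Over all sites 58.2% and 56.0% were lost at these times. The gains were the strong sites: 7.2 kb into the gene the Daxx-KO libraries held 3909 and 4303 against 2169 and 2794 in WT, and at the start 3113 and 2619.99 against 1839.8 and 1443. The site 7.2 kb into the gene was gained at 3 w.p.i. as well, with 181 and 159.7 against 90.3 and 100.4. H3K27me3 over the Pfkfb3 start was lost at 24 w.p.i., at 41.5 and 22.1 against 176 and 243.

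Pfkfb4 carried large Pu.1 changes. At 3 w.p.i. a site 28.9 kb into the gene held 110.3 and 119.97 in Daxx-KO against 6.79 and 12.8 in WT, the largest Pu.1 gain by ratio, and the next largest lay 3.7 kb upstream of the Eno2 start, with 56.7 and 40.5 against 7.31 and 0. Both sites sit on simple repeats of C, T and G, which is why 100 bases from the middle of each are printed (mm10, plus strand, chr9:109020601-109020700 in an intron of Pfkfb4 and chr6:124773276-124773375 in an intron of the neighbouring gene Lrrc23). Neither holds GAGGAA, the core of the Pu.1 motif, on either strand.
Pfkfb4 intron: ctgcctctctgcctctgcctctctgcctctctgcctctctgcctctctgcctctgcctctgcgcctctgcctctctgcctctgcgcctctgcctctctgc
Lrrc23 intron upstream of Eno2: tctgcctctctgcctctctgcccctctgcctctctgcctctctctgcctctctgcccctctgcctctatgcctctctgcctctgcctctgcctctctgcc
At 24 w.p.i. a Pu.1 site 25.9 kb into Pfkfb4 was nearly empty in Daxx-KO, with 1.36 and 0 against 199 and 84.2. H3K27ac had been lost over the same stretch at 3 w.p.i., at 5.81 and 6.80 against 34.4 and 110.3. Pfkfb2 gave the largest H3.3 gain by ratio at 24 w.p.i., 12.0 kb into the gene, with 152 and 97.3 in Daxx-KO and 0 in both WT libraries. Of its 10 H3K27ac sites 8 were lost, where 56.0% of all listed sites were lost at 24 w.p.i. Pfkfb1 lies on chromosome X, which the 24 w.p.i. tables leave out. At 8 w.p.i. it had 2 gained, 1 lost and 1 overlapping H3K27me3 site in DKO against WT, and its lost site, beyond the 3' end, held 14.7, 1.75 and 9.81 against 18.4, 22.6 and 42.5; the sexes of the mice were not used here.

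Lower glycolysis makes the ATP and pyruvate, through Gapdh, phosphoglycerate kinase, phosphoglycerate mutase (Pgam1, Pgam2), enolase (Eno1, Eno2, Eno3) and pyruvate kinase (Pkm, Pklr). Its 9 members had 22 gained and 3 lost H3.3 sites and 25 gained and 4 lost Pu.1 sites at 3 w.p.i., and 1 gained and 16 lost H3K27ac sites, where 62.1% (H3.3) and 58.6% (Pu.1) of sites in gene windows were gained and 61.6% (H3K27ac) lost. By 24 w.p.i. 32 H3K27ac sites were gained and 12 lost, among them gains at strong starts. In gene windows 40.6% of H3K27ac sites were gained at that time. Gapdh held 4466 and 4205 in Daxx-KO against 2566 and 2543 in WT. Pgam1 held 5346 and 5049.7 against 2741 and 2429, Eno1 2912 and 3052 against 1915 and 1565 and Pkm 1913 and 2468 against 1358 and 1179. At each of the 4 starts the lower Daxx-KO library was above the higher WT library, with log2 ratios of 0.76, 1.01, 0.78 and 0.79. Eno1 is a further case of opposite directions near the start, since a weak site at 3 w.p.i. was 5.81 and 5.95 against 17.2 and 22.1. That site (chr4:150236001-150236600) ended just upstream of the start, which the 24 w.p.i. site (chr4:150235951-150238350) covered.

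Pkm also gained Pu.1 at its start at 24 w.p.i., 115 and 244 against 43.2 and 47.4, and H3K9me3 at the same place, with 53.6 and 69.8 against 0 in both WT libraries. H3K27me3 just upstream was lost, 74.2 and 52.4 against 115 and 177. The largest H3.3 loss of the set at 24 w.p.i. lay 13.9 kb into Pkm, where both Daxx-KO libraries were at 0 and WT at 122 and 72.4. Eno2, the neuronal enolase, gained weak H3K27ac around its start, 45.7 and 83.4 against 2.23 and 9.49, and Eno3, the muscle enolase, lost it at the start, 26.2 and 11.7 against 159.7 and 50.6, while its 3' end gained, 31.5 and 29.3 against 3.35 and 0. Pgam2, the muscle mutase, gained H3K9me3 at its start, 39.5 and 71.9 against 12.4 and 0, as did Pgam1, 19.1 and 75.0 against 6.22 and 1.87. Pgk2, the testis phosphoglycerate kinase, had 1 listed site in all 14 comparisons, an H3K9me3 loss at 24 w.p.i. with 10.2 and 10.4 against 38.9 and 32.8. It was the only phosphoglycerate kinase gene in the set, so other forms of that enzyme were not followed.

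Pklr, the pyruvate kinase of liver and red cells, lost H3K27ac in all 6 of its listed sites at 3 and 24 w.p.i. At its start the Daxx-KO libraries held 16.5 and 8.50 against 60.2 and 53.0 in WT at 3 w.p.i. and 29.2 and 46.8 against 76.0 and 69.6 at 24 w.p.i. H3K27me3 ran the other way at 24 w.p.i., with 7 gained, 1 lost and 1 overlapping site, where 40.8% of all sites were gained. The start held 173 and 178 against 71.9 and 156. In DKO at 8 w.p.i. the start was above WT, at 104, 101 and 83.9 against 52.5, 39.0 and 49.2, and below Daxx-KO, at 94.2, 84.4 and 74.4 against 233, 97.8 and 107. The erythroid marker sums given above were lower in the same Daxx-KO H3K27ac libraries, and their part in the Pklr values was not tested.

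Lactate is made by Ldha and Ldhb (Ldhc is the testis form) and carried by Slc16a1 (MCT1) and Slc16a3 (MCT4, the exporter of glycolytic cells). Ldha had the strongest H3K27ac start of the set: 5716 and 5540.03 in Daxx-KO against 2008 and 2402 in WT at 24 w.p.i., a log2 ratio of 1.35. All 6 sites in its window were gained, where 41.3% of all sites were. Pu.1 at the Ldha start was gained at both times, 42.5 and 44.6 against 21.4 and 3.20 at 3 w.p.i. and 79.1 and 64.8 against 31.7 and 7.37 at 24 w.p.i. H3K27me3 there was lost, 13.6 and 6.44 against 37.3 and 54.3. At none of these sites did Daxx-KO and WT overlap. Ldhb went the other way, with H3K27ac at its start at 69.7 and 114 against 210.0 and 289 and H3K27me3 at 595 and 874 against 524 and 533 at 24 w.p.i. H3K27me3 near the Ldhb start was also gained in DKO at 8 w.p.i., at 65.7, 65.5 and 62.1 against 39.4, 26.3 and 19.0 in WT and 52.7, 68.3 and 49.6 against 21.4, 21.7 and 32.9 in Daxx-KO. H3K9me3 at the Ldhb start was gained at 3 w.p.i., 13.9 and 16.7 against 1.75 and 1.74.

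Slc16a3 went in opposite directions in H3K27ac near its start, from 22.3 and 15.3 against 39.8 and 51.9 at 3 w.p.i. to 4066 and 3554 against 2222 and 1912 at 24 w.p.i. The 3 w.p.i. site (chr11:120948701-120949550) lay just inside the gene and the 24 w.p.i. site (chr11:120947801-120951050) covered the start. H3.3 at that start at 24 w.p.i. was 0 in both Daxx-KO libraries and 90.4 and 66.8 in WT, and Pu.1 was 13.6 and 18.8 against 95.0 and 49.5, so that H3.3 and Pu.1 were lost where H3K27ac was gained. H3K27me3 was lost too, 89.3 and 92.0 against 179 and 176. Slc16a1 gained H3K27ac at its start, 788 and 780.1 against 446 and 482, with 1 gained, 3 lost and 1 overlapping site in all. Ldhc had 6 gained and 2 lost H3K27ac sites at 24 w.p.i., part of them in the stretch it shares with Ldha, and lost Pu.1 at its start, 4.09 and 2.09 against 57.6 and 71.6. Its 3' end was among the largest H3K9me3 gains, from 0 in both WT libraries to 49.7 and 73.0.

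Of the gluconeogenic genes, Pcx (chr19:4510472-4621752, plus strand) encodes pyruvate carboxylase, the mitochondrial enzyme that makes oxaloacetate from pyruvate. At 24 w.p.i. it was 1 of 4 members with more gained than lost H3K27me3 sites, beside Pklr, Ldhb and G6pc, and held most of the gains. It had 36 gained, 2 lost and 1 overlapping site, with the gains spread from 2.4 to 110.1 kb along the gene. Over all sites 40.8% were gained. The strongest gained site, 103.9 kb from the start over Lrfn4, a gene that lies inside the Pcx body, held 1059 and 884 in Daxx-KO against 345 and 637 in WT. The largest ratios were at weak sites, 62.2 and 44.2 against 7.47 and 8.57 and 23.1 and 49.7 against 7.47 and 5.71. The start itself, with the highest level, did not separate the genotypes, at 1799.6 and 1842 against 1587 and 2999.9, since WT replicate 2 was above and WT replicate 1 below both Daxx-KO libraries.

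DKO cells gained H3K27me3 along Pcx as well. Against WT at 8 w.p.i. 11 of 12 sites were gained and 1 overlapped, where 48.0% of all sites were gained. The site from the start on held 369, 269 and 285 in DKO against 123, 93.3 and 124 in WT. The next sites downstream held 43.0, 90.8 and 70.8 against 12.2, 12.7 and 17.9 and 11.3, 52.4 and 28.3 against 7.87, 1.81 and 6.71. Every DKO library lay above every WT library at each. Against Daxx-KO, with which it shares the DKO libraries, 7 of 9 sites were gained and 1 lost, with 32.6, 74.4 and 53.4 against 17.3, 20.6 and 28.9 at the site 18.5 kb in. H3K27ac at Pcx had 6 gained and 11 lost sites at 24 w.p.i., when 56.0% of all sites were lost. The 2 sites with the largest ratios held 0 and 0 against 40.2 and 34.8 and 5.99 and 0 against 81.5 and 156. H3.3 at Pcx was gained at all 12 sites at 3 w.p.i. and split 12 to 12 at 24 w.p.i., where 58.7% and 51.3% of all sites were gained. Pcx also held the most H3K9me3 sites at 24 w.p.i., 6 gained and 5 lost, the largest loss beyond its 3' end with 0 in both Daxx-KO libraries against 62.2 and 30.0.

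**Figure D3:**
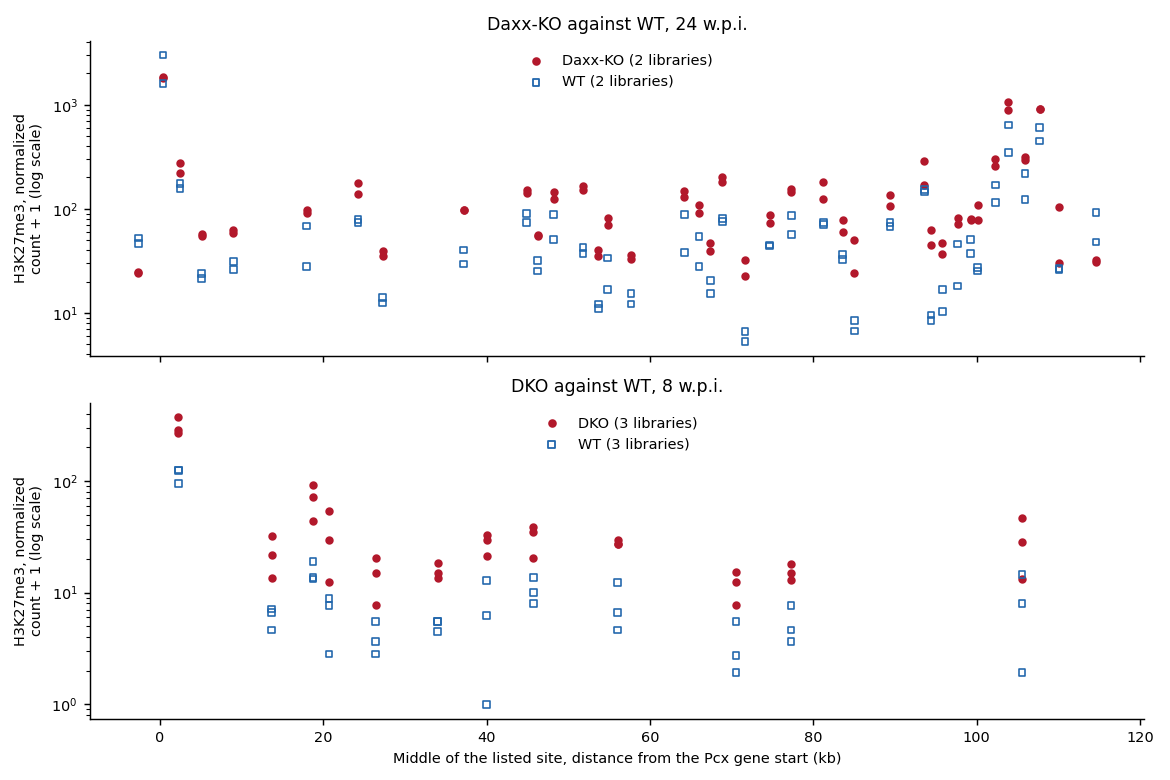
H3K27me3 sites along Pcx by distance of the site's middle from the gene start in kb, in normalized counts plus 1 on a log scale, for Daxx-KO against WT at 24 w.p.i. and DKO against WT at 8 w.p.i.; each filled circle is 1 knockout library and each open square 1 WT library. The knockout libraries lie above WT at 36 of 39 sites at 24 w.p.i. and at 11 of 12 at 8 w.p.i., and they overlap WT at the start at 24 w.p.i.

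Phosphoenolpyruvate carboxykinase comes as a cytosolic form (Pck1) and a mitochondrial one (Pck2), and glucose-6-phosphatase as a liver form (G6pc) and a widespread one (G6pc3). The Pck1 start lost weak H3K27ac at 24 w.p.i., 16.5 and 5.85 against 42.5 and 40.3, while a site beyond its 3' end was among the largest gains, 34.5 and 36.6 against 2.23 and 3.16. The Pck2 start gained, 669 and 463 against 416 and 402, between lost flanks at 51.0 and 61.5 against 118 and 127 and 94.4 and 65.9 against 179 and 145. The G6pc start was near empty of H3K27ac in Daxx-KO, 1.50 and 0 against 48.0 and 33.2. A site upstream of it was weak at 3 w.p.i., at 5.81 and 8.50 against 0 in both WT libraries. It was gained at 3 and 24 w.p.i., with log2 ratios of 3.03 and 3.05. G6pc3 was lower, 23.2 and 32.2 against 55.9 and 85.4. At the G6pc3 start Pu.1 and H3K27me3 were lost as well, with 5.45 and 40.8 against 219 and 109 and 7.18 and 9.20 against 112 and 37.1. At 3 w.p.i. H3.3 was gained there, 45.8 and 32.4 against 11.2 and 15.7.

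Fructose bisphosphatase removes a phosphate from fructose-1,6-bisphosphate and so opposes phosphofructokinase; Fbp1 is best known from liver and kidney and Fbp2 from muscle. The genes lie head to tail on the minus strand of chromosome 13, Fbp1 at chr13:62864753-62888282 and Fbp2 at chr13:62836877-62858422, with the Fbp2 start facing the 3' end of Fbp1. Against the losses of the rest of the set at 3 w.p.i., 13 of 14 H3K27ac sites in these windows were gained and 1 lost. Over all sites 39.4% were gained. At the Fbp1 start the Daxx-KO libraries held 94.0 and 121 against 8.60 and 21 in WT at 3 w.p.i. and 224 and 184 against 51.4 and 72.8 at 24 w.p.i. The strongest site, about 8 kb into Fbp1, held 291 and 246 against 149 and 129 at 3 w.p.i. and 1376 and 1589.6 against 717 and 934 at 24 w.p.i. Daxx-KO was above WT at both sites and both times. The other gained Fbp1 sites at 3 w.p.i. were weaker, such as the one 2.4 kb into the gene at 20.4 and 27.2 against 0 and 5.52. The 5 in the Fbp2 window included a site between the genes at which Daxx-KO replicate 1 stood above replicate 2 (101 and 17, against 16.1 and 15.4 in WT). At 24 w.p.i. Fbp1 had 5 gained, 3 lost and 1 overlapping H3K27ac site and Fbp2 1 gained, in the space between the genes, and 2 lost.

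H3K27me3 was lost at all 16 listed sites of the pair at 24 w.p.i., 7 at Fbp1 and 9 at Fbp2, where 56.8% of all sites were lost. The Fbp1 start held 102 and 149 in Daxx-KO against 355 and 534 in WT. The largest losses by ratio in the set were also in the Fbp1 window. A site 3.5 kb upstream of the start held 0 and 0 against 51.4 and 27.1. Another, 12.5 kb into the gene, held 4.79 and 5.52 against 60.7 and 106. A site 2.0 kb into Fbp2 held 11.2 and 53.4 against 134 and 168. At 8 w.p.i. DKO gained H3K27me3 over Daxx-KO at 7 of 7 sites in and beyond the second part of Fbp2, where 55.9% of all sites were gained. At the site 13.3 kb into the gene DKO held 50.2, 60.3 and 38.5 and Daxx-KO 8.24, 10.9 and 13.2, and at the one 25.0 kb from the start 17.6, 28.1 and 16.1 against 0, 4.35 and 1.32. Every DKO library was above every Daxx-KO library at all 7. Against WT, DKO had 2 lost sites, 1 at Fbp2 with 4.53, 0 and 3.27 against 12.2, 14.5 and 8.94 and 1 upstream of Fbp1 with 7.92, 6.11 and 3.27 against 26.2, 24.5 and 8.94.

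H3K9me3 at the pair had no lost site in Daxx-KO against WT at any time, with 3 gained at 3 w.p.i., 2 gained and 1 overlapping at 8 w.p.i. and 4 gained at 24 w.p.i. Its centre was the first part of Fbp2. The Fbp2 start held 131 and 108 in Daxx-KO against 43.8 and 52.8 in WT at 3 w.p.i., and 2.0 kb into the gene the values were 54.6 and 58.3 against 14.0 and 22.0. At 8 w.p.i. the site 3.5 kb into the gene held 44.3, 46.9 and 29.4 against 3.16, 5.06 and 2.5, while the one 1.4 kb in overlapped in Daxx-KO replicate 3, at 56.0, 46.9 and 16.0 against 9.48, 9.28 and 16.2. At 24 w.p.i. 1 long site covered the start and most of the 5 kb after it, with 2345 and 1614 against 424 and 399, a log2 ratio of 2.26 and the highest H3K9me3 level of the set. The gained sites between the genes were weaker, at 302 and 380.4 against 218 and 158 and 177 and 129 against 52.9 and 71.2. In DKO the stretch was not listed against either group at 8 w.p.i. The 1 listed Fbp2 site against Daxx-KO, at the 3' end, was 0 in all 3 DKO libraries and 4.96, 4.99 and 6.15 in Daxx-KO. Since DKO replicates 1 and 2 were shallow (0.69 and 0.20 reads per window against Daxx-KO), zeros in them and a missing site say little. The 100 bases that the sites of all 3 times share within Fbp2 (chr13:62855601-62855700, intron, mm10, plus strand) are almost free of annotated repeat (3.00%), unlike the Hk1 stretch, and hold 1 GAGGAA, in capitals.
Fbp2 intron: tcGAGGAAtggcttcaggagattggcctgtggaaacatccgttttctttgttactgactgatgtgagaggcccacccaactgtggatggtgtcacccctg

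**Figure D4:**
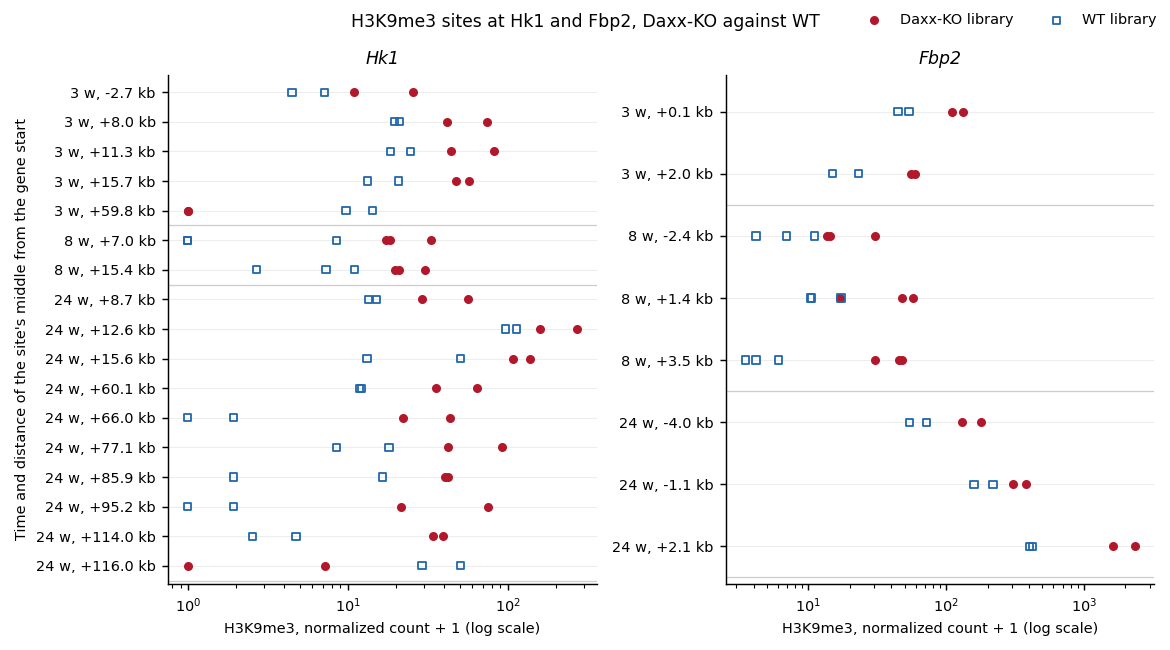
H3K9me3 sites at Hk1 (left) and Fbp2 (right) in Daxx-KO against WT, by time and distance of the site's middle from the gene start, in normalized counts plus 1 on a log scale; filled circles are Daxx-KO libraries and open squares WT libraries. Daxx-KO lies above WT at all sites but the Hk1 sites 59.8 kb in at 3 w.p.i. and 116.0 kb in at 24 w.p.i., which were lost, and the Fbp2 site 1.4 kb in at 8 w.p.i., which overlaps.

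Pu.1 sites at Fbp1 were mostly lost. At 3 w.p.i. 5 of 6 Fbp1 sites were lost and 1 gained, and at 24 w.p.i. 6 of 8 were lost and 2 gained. Over all Pu.1 sites 42.8% were lost at 3 w.p.i. and 51.3% at 24 w.p.i. The 3 w.p.i. site between the genes held 7.09 and 3.24 against 46.0 and 57.5, among the largest Pu.1 losses of the set. Within Fbp1 the site 17.3 kb from the start held 26.0 and 25.1 against 77.3 and 70.3 and the one 18.9 kb from it 29.9 and 30.0 against 65.3 and 63.9. At 24 w.p.i. the Fbp1 start held 6.13 and 1.04 against 48.9 and 36.8, and 11.6 kb in the values were 0 and 6.27 against 72.0 and 72.6. Daxx-KO lay below WT at each of these. The Fbp1 sites at 11.6 and 11.9 kb from the start, at 24 and 3 w.p.i., overlap and were lost at both times. Another Fbp1 stretch, in the 3' part, was gained at both times (log2 ratios 0.98 and 3.80). Its gained site at 24 w.p.i. (chr13:62866501-62867100) ran into a site lost at that same time (chr13:62866851-62867950). Nearer the start, a site lost at 3 w.p.i. (chr13:62883001-62883650) and one gained at 24 w.p.i. (chr13:62882151-62883150) overlapped only at their ends. Their log2 ratios were -1.27 and 2.11. Within Fbp2 a Pu.1 site was gained at 3 w.p.i., and at 24 w.p.i. sites in its window went both ways. H3.3 had 3 gained and 2 lost Fbp1 sites at 3 w.p.i., the start gained at 56.9 and 53.1 against 16.1 and 34.0 and the stretch 2.9 kb upstream lost at 6.32 and 5.90 against 58.2 and 73.3. At 24 w.p.i. the space between the genes gained H3.3, at 104 and 67.9 against 2.77 and 12.2.

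The middle 300 bases of 2 of the lost Pu.1 sites at 3 w.p.i. are shown because they differ in the core of the Pu.1 motif, GAGGAA, read on either strand and so also as TTCCTC, both in capitals. The Fbp1 intron site (chr13:62869201-62869500) holds 2 matches and the site between the genes (chr13:62859451-62859750), 81.7% of which is annotated repeat, holds 0; both are from mm10, plus strand.
Fbp1 intron: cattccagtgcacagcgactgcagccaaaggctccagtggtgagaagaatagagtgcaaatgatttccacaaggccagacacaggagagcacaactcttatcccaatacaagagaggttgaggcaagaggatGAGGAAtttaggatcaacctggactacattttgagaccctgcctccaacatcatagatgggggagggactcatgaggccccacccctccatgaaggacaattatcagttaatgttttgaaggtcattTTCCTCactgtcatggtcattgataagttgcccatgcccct
Between Fbp1 and Fbp2: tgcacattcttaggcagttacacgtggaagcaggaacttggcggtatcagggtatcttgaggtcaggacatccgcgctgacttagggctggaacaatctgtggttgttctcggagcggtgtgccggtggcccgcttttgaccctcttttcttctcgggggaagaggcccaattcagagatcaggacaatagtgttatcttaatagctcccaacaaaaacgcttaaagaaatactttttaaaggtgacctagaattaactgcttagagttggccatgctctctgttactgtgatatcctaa
In windows of this length 25.6% of all listed Pu.1 sites at 3 w.p.i. held the 6 bases, and 46 of 191 member sites did (24.1%, interval 18.6 to 30.6). At 24 w.p.i. it was 26.5% of all sites and 86 of 258 member sites (33.3%, 27.9 to 39.3). At the members the share was 31.3% in lost and 34.2% in gained sites at 24 w.p.i. A match is only a run of letters, and a window without one says nothing about Pu.1.

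**Figure D5:**
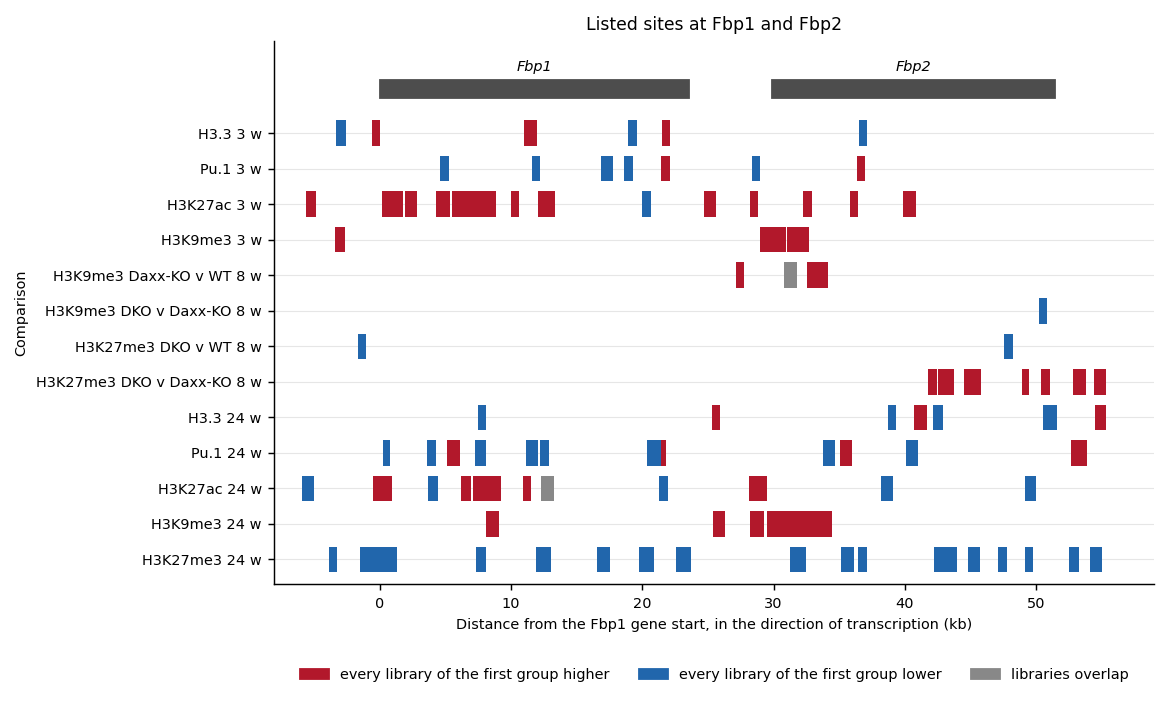
Listed sites over Fbp1 and Fbp2 in the 13 comparisons that have any (rows), by distance from the Fbp1 start in kb, coloured by whether the first group was higher (gained), lower (lost) or overlapping. H3K27ac is gained along Fbp1 at 3 w.p.i., H3K9me3 is gained around the Fbp2 start at 3, 8 and 24 w.p.i., and H3K27me3 is lost at all 16 sites at 24 w.p.i. and gained at 7 in DKO against Daxx-KO.

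The times were set side by side by pairing sites of 1 mark that overlapped and did not overlap between genotypes. For H3.3, 40 of 72 member pairs had the same direction at 3 and 24 w.p.i. (55.6%), against 51.2% of all pairs. For Pu.1, 32 of 75 did (42.7%, against 47.9%), and 37 of the others (49.3% of the pairs, against 34.2% of all) were gained at 3 and lost at 24 w.p.i.; when at least 50% of the shorter site had to overlap, 56.9% had the same direction. For H3K27ac, 64 of 106 did (60.4%, against 60.5%). Of the others, 35 were lost and then gained (33.0% of the pairs, against 22.0% of all), as near the starts of Gpi1, Eno1 and Slc16a3. For H3K9me3, 5 of 6 did, all gained, at Hk1 and Fbp2, where 57.2% of all pairs agreed in direction. Between marks at 24 w.p.i., which came from the same mice, 46 of 96 overlapping pairs of H3K27ac and H3K27me3 sites were gained in H3K27ac and lost in H3K27me3 (47.9%, against 37.9% of all such pairs). Another 29 were lost in both (30.2%, against 34.9%), 13 were lost in H3K27ac and gained in H3K27me3 (13.5%, against 14.9%) and 8 were gained in both (8.33%, against 12.3%). At 3 w.p.i. 27 of 44 overlapping Pu.1 and H3K27ac pairs were gained in Pu.1 and lost in H3K27ac (61.4%, against 40.0% of all such pairs). The Daxx-KO mice differed between these marks, WT replicate 2 was the same mouse, and WT replicate 1 has no mouse number for Pu.1.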

How the data were processed

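CUT&Tag reads were processed by the authors; the submitters' processing notes name CASAVA 1.8.4, cutadapt 1.13, STAR 2.5.3 and bedtools and the mm10 genome. Per the file headers, diffReps 1.55.6 compared groups with a negative binomial test in 600 bp windows at 50 bp steps (fragment size 100, p-value limit 0.0001), and merged windows into sites. The deposited values used here are the signal per library at each listed site, normalized counts, that is reads divided by a constant per library. The deposited columns of the authors' own comparisons (group averages, log2 fold changes, p-values) were not used. Only sites past that test are listed, so a gene without a site may be unchanged or below the limit.

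Sites were joined to GENCODE M21 gene bodies with 5 kb on each side by an overlap of at least 1 bp, and called gained, lost or overlapping from the library values; log2 ratios add 1 count. Since the deposited values are normalized and cover selected sites, no count model was fitted. Sites within 1 kb of the annotated start were counted as start sites. The functions were tested on simulated data. The members, the lists of neighbouring pathways and cell type markers and all rules were chosen with earlier results of these data known. A further list of genes that branch off the pathway is not reported here. Named were the member with most sites in each comparison and members with a site at the start. Also named were the 2 sites per direction with the largest log2 ratio at a higher group mean of at least 20 (10 in sparse tables). The sites of Fbp1 and Fbp2 were described, not all of them with values. So were the members with most sites paired across times or marks. Replicates of 1 mark and time carry different mouse numbers in the labels, apart from WT replicate 1 of H3.3 and Pu.1 at 3 w.p.i., whose label gives none. Chromosomes X and Y are not in the 24 w.p.i. tables. The Daxx-KO against WT table of H3K27me3 at 8 w.p.i. was left out because its control columns belong to H3K9me3 libraries. Sequences were read from the RefSeq GRCm38 genome. Python 3.11.15 was used with numpy 2.4.6, pandas 2.3.3, scipy 1.17.1 and matplotlib 3.10.9.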

Additional observations from a re-analysis of the deposited data

Results flagged for a closer look

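A site listed at 3 w.p.i. and again at 24 w.p.i. in the opposite direction, with every Daxx-KO library on one side of WT at the first time and on the other side at the second, was looked for in each mark. At the members this held for 32 of 72 H3.3 pairs, 43 of 75 Pu.1 pairs, 42 of 106 H3K27ac pairs and 1 of 6 H3K9me3 pairs. The difference between the times was not tested, and the mice, libraries and depths differ between them. Over all listed sites 21556 of 44129 H3.3 pairs, 27791 of 53295 Pu.1 pairs, 15728 of 39859 H3K27ac pairs and 5958 of 13930 H3K9me3 pairs had opposite directions.

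Of the H3K27ac pairs, 35 were lost at 3 w.p.i. and gained at 24 w.p.i. and 7 went the other way, where 8779 and 6949 of 39859 pairs over all sites did. Of the Pu.1 pairs, 37 were gained first and lost later and 6 the reverse, where 18253 and 9538 of 53295 pairs over all sites did. With at least 50% of the shorter site overlapping, 56.9% of the Pu.1 pairs at the members had the same direction, in place of 42.7%. Among the 6 was the stretch upstream of Slc2a3 that was 1.58 and 5.67 in Daxx-KO against 46.5 and 51.1 in WT at 3 w.p.i. and 47.7 and 88.8 against 5.76 and 2.11 at 24 w.p.i. The H3K9me3 pair lies about 60 kb into Hk1, with 0 in both Daxx-KO libraries against 8.75 and 13.3 at 3 w.p.i. and 34.4 and 63.6 against 10.9 and 11.2 at 24 w.p.i.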

How the results depend on the processing

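Of 241 recomputed values, 201 stayed within the limits set for them (for a share, its own 95% interval; for a number of members, 1.5 times). The others are given here by setting, as percent gained unless stated. At sites within 1 kb of the gene start the share was 100 for H3K9me3 at 3 w.p.i., 0 for H3K9me3 in Daxx-KO against WT at 8 w.p.i., 75.0 and 40.0 for H3K27me3 in DKO against WT and against Daxx-KO, and 28.1 for Pu.1, 65.1 for H3K27ac, 88.9 for H3K9me3 and 16.7 for H3K27me3 at 24 w.p.i. With a mean of at least 20 in the higher group it was 44.0 for H3K27ac and 100 for H3K9me3 at 3 w.p.i. and 0 for H3K9me3 in DKO against WT and against Daxx-KO. With gene bodies alone it was 0 in the same 2 comparisons. With group means in place of separate libraries it was 100 for H3K9me3 in Daxx-KO against WT and in DKO against WT and 82.6 for H3K27me3 in DKO against WT. With at least a 2-fold ratio it was 46.2 for H3K27ac and 23.3 for H3K27me3 at 24 w.p.i.

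2 settings were chosen after the data were seen, and so was the removal of Fbp1 and Fbp2 from H3K27ac at 3 w.p.i. given above. Without the member with most sites the share was 100 for H3K9me3 at 3 w.p.i., in Daxx-KO against WT and in DKO against WT, and 16.7 for H3K27me3 at 24 w.p.i. without Pcx. With a mean of at least 500 it was 85.2 for H3K27ac at 24 w.p.i. Leaving out 1 library at a time moved 1 comparison past its limit: H3K9me3 in Daxx-KO against WT at 8 w.p.i. ranged from 80.0 to 100, the latter without Daxx-KO replicate 3 or without WT replicate 3. By construction, leaving out a library can turn an overlapping site into a gained or lost one but not the reverse, so these ranges do not show whether a call depends on 1 library.

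The share of pairs with the same direction at 3 and 24 w.p.i. was 56.9 for Pu.1 when at least 50% of the shorter site had to overlap, in place of 42.7, and 100 for H3K9me3 with a mean of at least 20. Counted at gene starts alone, members with a listed site numbered 18, 14, 9 and 2 for H3.3, Pu.1, H3K27ac and H3K9me3 at 3 w.p.i., 1, 0 and 0 for H3K9me3 in Daxx-KO against WT, DKO against WT and DKO against Daxx-KO, 4 and 3 for H3K27me3 in DKO against WT and against Daxx-KO, and 13 for H3.3 and 8 for H3K9me3 at 24 w.p.i. In gene bodies alone H3K9me3 in DKO against WT had 1 member. Fewer sites enter each of these settings by construction; beyond that the cause was not tested. No paired analysis was possible because the files hold normalized counts of selected sites, for which no test was run. The H3K9me3 shares at 8 w.p.i. rest on 2 to 5 member sites. The part of depth in the number of listed sites was not tested.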

Other observations

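Genes next to the pathway were read the same way, as 2 lists. The 7 genes of the pentose phosphate pathway had 38 gained, 28 lost and 4 overlapping H3K27ac sites at 24 w.p.i. (54.3% gained, where 41.3% of all sites were) and 1 gained, 9 lost and 1 overlapping H3K27me3 site (56.8% of all sites were lost). At 3 w.p.i. they had 4 gained and 14 lost H3K27ac sites, where 58.2% of all sites were lost, and 26 gained and 7 lost H3.3 sites, where 58.7% of all were gained. The 13 genes of pyruvate oxidation, the pyruvate carrier, pyruvate dehydrogenase and its kinases and phosphatases, had 20 gained and 36 lost of 58 H3K27ac sites and 1 gained and 17 lost H3K27me3 sites at 24 w.p.i., where 56.0% and 56.8% of all sites were lost.

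The other marker lists moved as follows in H3K27ac. The 7 stem and progenitor markers summed to 4638 and 6375 normalized counts in Daxx-KO against 2525 and 2454 in WT at 3 w.p.i. and to 16675 and 16566 against 11750 and 10982 at 24 w.p.i. The 6 B cell markers summed to 852 and 896 against 474 and 485 at 3 w.p.i. and to 4246 and 4726 against 4155 and 3911 at 24 w.p.i. The 4 T cell markers summed to 3454 and 3201 against 4399 and 4216 at 24 w.p.i. Of 3 mast cell and basophil markers all were listed at 3 w.p.i., where the sums of 127 and 208 against 178 and 97.1 overlapped between genotypes, and Cpa3 alone at 24 w.p.i., with 61.4 and 36.6 against 16.8 and 16.6. These sums run over listed sites alone.

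Gained H3K9me3 sites at the members lay on less annotated repeat than all gained sites at 24 w.p.i., with a median of 10.0% of bases against 20.3%, while at 3 w.p.i. the median over 9 member sites was 44.1% against 37.0%. At 8 w.p.i. it was 20.5% against 31.0% over 4 sites in Daxx-KO against WT, and the single gained site of each DKO comparison was 100% repeat, against 34.9% (WT) and 36.9% (Daxx-KO) over all gained sites. The member sites ranged from 0 to 73.1% at 24 w.p.i. No test was run on these shares.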
